A study of Mus musculus with 16 samples.

Results

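The genes described here code in the nucleus for subunits of the mitochondrial respiratory chain and the ATP synthase, and were measured by RNA sequencing in the cortex and cerebellum of mice. They were chosen by name alone, as genes of the Nduf, Sdh, Uqcr, Cox4 to Cox8 and Atp5 series, without pseudogene names and with at least 100 counts summed over the 16 libraries. Of 37583 genes in the files, of which 27196 had a count, 87 carried such a name and 83 were members. The 4 left out were the pseudogene Atp5l-ps1 with 10 counts, Cox8c with 0 counts, Cox7b2 with 80 counts and Atp5l2 with 7 counts. By complex, 35 members belonged to complex I, 4 to complex II, 8 to complex III, 18 to complex IV and 16 to complex V. The remaining 2 matched by name but code for no subunit: Cox4nb, now called Emc8, a gene of the endoplasmic reticulum membrane complex, and Atp5sl, now called Dmac2, an assembly factor of complex I. Atp5s, counted with complex V by its name, and Cox7a2l, counted with complex IV, are a coupling factor and a factor that joins complexes III and IV rather than core subunits.

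Complexes I to IV pass electrons from NADH and succinate to oxygen and, except for complex II, pump protons across the inner mitochondrial membrane. Complex V uses the proton gradient to make ATP, on which neurons rely for ion pumping and synaptic transmission. Most subunits are coded in the nucleus and imported, while a few core subunits are coded by mitochondrial DNA. Those mitochondrial genes were not analysed here. Several subunits of complex IV have a second gene, best known from heart, skeletal muscle, lung or testis, whose product can take the place of the common form.

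There were 4 groups of 4 libraries: each region from 4 wild-type mice and from 4 mice with the A391T (A393T) variant of the zinc and manganese transporter gene Slc39a8, all of strain C57BL/6J. Libraries carry a number for the mouse, so that CTX447 and CBLM447 are the cortex and the cerebellum of 1 animal. Wild-type libraries are CTX447, CTX448, CTX479 and CTX480 with CBLM447, CBLM448, CBLM479 and CBLM480, and A391T libraries are CTX445, CTX446, CTX461 and CTX462 with CBLM445, CBLM446, CBLM461 and CBLM462. Values per library are given in these orders. The study's methods give an age of 12 weeks and male sex for the wild-type mice used for RNA, and frontal cortex as the cortical region taken. The variant changes a protein residue, which counts per gene do not show, so the genotype labels could not be checked here. For 4 of the mice the deposited table of RPKM values gave a library another name than the count files did: CTX447 and CTX461, CTX448 and CTX462, and the cerebellum libraries of the same mice were exchanged. Names of the count files are used throughout, and each genotype comparison rests on them. Markers matched the regions in every library: the 4 genes for cortical excitatory neurons summed to between 2233 and 2801 TPM in cortex and between 742 and 994 TPM in cerebellum, and the Purkinje cell genes to between 413 and 546 TPM in cortex and between 4249 and 4925 TPM in cerebellum. TPM stands for counts per base of the gene length in the deposited RPKM table, brought to an equal sum in every library, while log2 fold changes come from counts scaled by TMM factors.

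Each library held between 20813432 and 30497206 counts on genes, and the members took between 0.998% and 1.79% of them. 2 libraries stood furthest apart. In wild-type cortex CTX480 the members took 1.29% of the counts, against 0.998% to 1.12% in the other cortex libraries. In A391T cerebellum CBLM445 they took 1.79%, against 1.20% to 1.37% in the other cerebellum libraries. The median member lay above the mean of its region by 0.21 (log2) in the first and by 0.30 in the second. Ribosomal protein genes, which also have short transcripts, lay 0.28 above in both, while other genes over 6000 bases long lay 0.16 below in wild-type cortex CTX480 and 0.13 below in A391T cerebellum CBLM445. Wild-type cerebellum CBLM479 and CBLM480 were shifted the other way, with the median member at -0.175 and -0.138. Other genes over 6000 bases long were at 0.077 and 0.059 there. The members had a median length of 1285 bases, against 3529 bases for the 16855 genes with at least 100 counts. The part of transcript length in the results was not tested, and counts of members called between regions are given with and without CTX480 and CBLM445. In whole tissue, fewer cells of a type and less RNA per cell cannot be told apart.

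**Figure D1:**
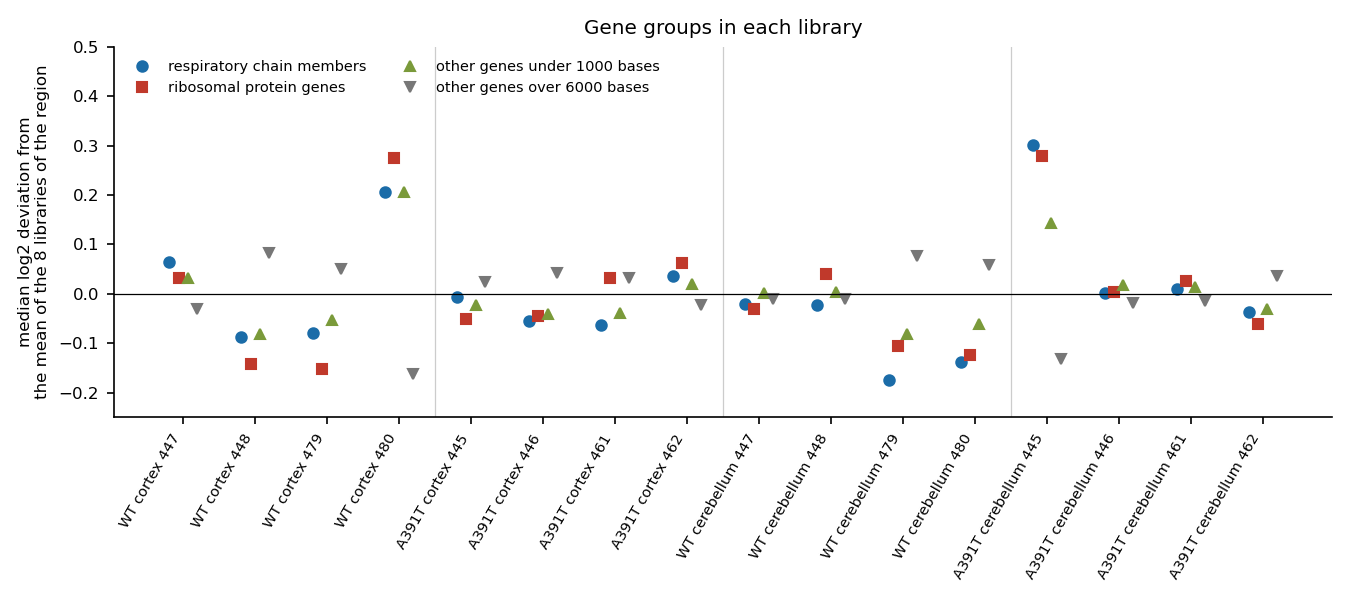
Median log2 deviation of 4 gene groups from the mean of the 8 libraries of the same region, for each of the 16 libraries. Members (circles) and ribosomal protein genes (squares) lie 0.21 to 0.30 above 0 in wild-type cortex CTX480 and A391T cerebellum CBLM445, where other genes over 6000 bases (downward triangles) lie below 0.

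Levels of the members ranged widely within a complex, and their order depends on the length given to each gene. The length in the RPKM table was over 1.5 times away from the annotated exon bases for 3 members, Atp5c1, Atp5e and Cox6c. For Atp5c1 it was 22595 against 1908 bases, so that its 26.2 TPM cannot be compared with other genes (333 TPM with the median length of its protein-coding transcripts). In wild-type cortex the median member stood at 240 TPM, and 8 members exceeded 1000 TPM, or 4 with protein-coding transcript lengths. Cox4i1, a subunit that joins complex IV early in its assembly, was the highest with a mean of 3630 TPM (3287 to 4228 TPM over the 4 libraries) and held 11.9% of the summed level of all members (7.86% with the other lengths). With either length Cox4i1, Cox8a, Cox6b1, Ndufa4, Atp5a1, Atp5b, Cox6a1 and Ndufb9 were among the 10 highest members. The other 2 places went to Cox7a2 and Uqcrc1 with the lengths of the RPKM table, and to Atp5g3 and Uqcrq with those of protein-coding transcripts. Of these, Atp5a1 and Atp5b code for the catalytic head of the ATP synthase, Ndufa4 for a subunit once placed in complex I and now in complex IV, and Uqcrc1 for a core protein of complex III. In wild-type cerebellum Cox4i1 was again the highest, at 3624 ± 208 TPM (SD, n = 4). Within complex I means in wild-type cortex ran from 21.2 TPM for Ndufb4 to 1090 TPM for Ndufb9, within complex II from 104 TPM for Sdhc to 402 TPM for Sdha, and within complex III from 78.3 TPM for Uqcrb to 594 TPM for Uqcrc1. With protein-coding transcript lengths Sdhd was the lowest of complex II at 143 TPM and Uqcrq the highest of complex III at 567 TPM, while the other 4 genes kept their places.

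At the other end, 5 members lay under 10 TPM in wild-type cortex: Cox6b2, Atp5g1, Atp5l, Atp5g2 and Cox8b. With protein-coding transcript lengths there were 7, without Atp5g1 and with Cox4i2, Cox7a1 and Ndufa4l2. Reads aligned to more than 1 place were not counted, which bears on the counts of Atp5g2 and Atp5l. Every 50-base window of the annotated Atp5g2 transcripts (100%), as long as a read, had an exact copy elsewhere in the NCBIM37 assembly, and 89.4% of the windows of Atp5l had one. Atp5g2, 1 of 3 genes for the c subunit of the proton-driven rotor, was counted at 1.77 ± 0.261 TPM and Atp5l, a membrane subunit, at 3.30 ± 0.810 TPM in wild-type cortex. In all, 23 members had copies of at least 10% of their windows, among them Uqcrb with 61.5%, Cox5b with 56.5%, Cox7a2l with 53.2%, Ndufb4 with 41.3%, Cox7c with 29.9% and Atp5g1 with 28.1%. A further 39 members had no copied window. The genes Cox6a2, Cox7a1, Cox6b2, Cox8b and Cox4i2, which the main results turn on, had 0% copied windows.

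**Figure D2:**
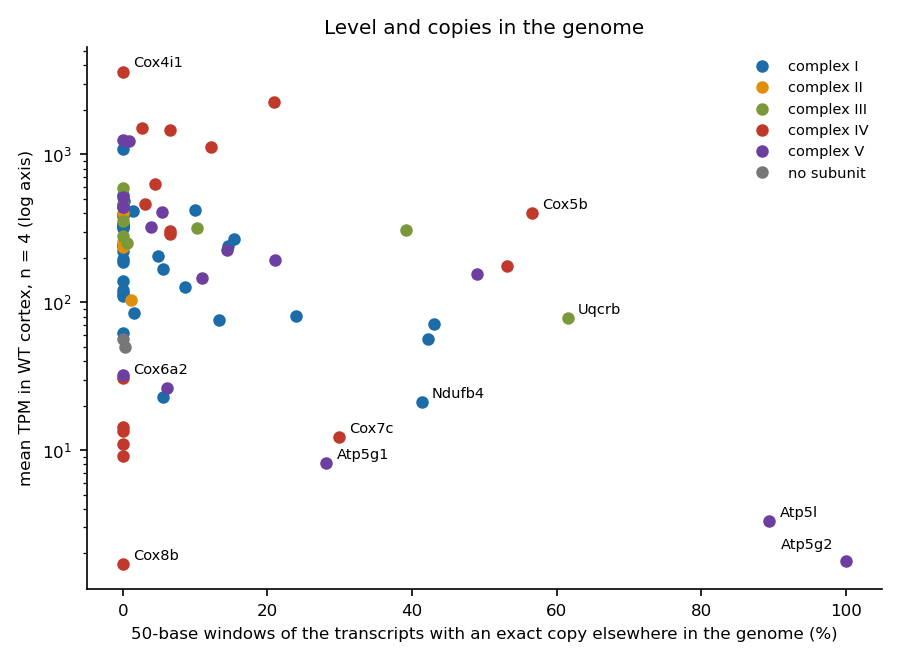
Mean TPM in wild-type cortex (n = 4, log axis) of each of the 83 members against the percentage of 50-base windows of its transcripts that have an exact copy elsewhere in the genome, coloured by complex. Atp5g2 and Atp5l, at 100% and 89.4%, are counted at 1.77 and 3.30 TPM, while Cox8b and Cox6a2 have no copied window.

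Summed over a complex, complexes II and V were higher in cerebellum than in cortex in each wild-type library. Complex V summed to 5413 ± 419 TPM in cortex against 6602 ± 240 TPM in cerebellum (SD, n = 4), and complex II, which also works in the tricarboxylic acid cycle, to 997 ± 56.0 TPM and 1214 ± 12.1 TPM. Their libraries did not overlap between regions, with a highest value of 5998 TPM in cortex and a lowest of 6387 TPM in cerebellum for complex V. Complex IV summed to 12357 ± 1488 TPM in cortex against 12311 ± 694 TPM in cerebellum, a difference far within the spread. Complex I stood at 8891 ± 909 TPM and 9982 ± 498 TPM, and complex III at 2645 ± 196 TPM and 2990 ± 123 TPM, with overlapping libraries in both cases. No test was made on these sums. In A391T mice none of the 5 complexes overlapped between regions on this scale. Complex I stood at 8704 ± 202 TPM and 11347 ± 1525 TPM, and complex IV at 12135 ± 282 TPM and 14050 ± 1788 TPM. The gap of complex IV was narrow, from 12513 TPM in the highest cortex library to 12892 TPM in the lowest cerebellum library. A391T sums were not rescaled by TMM factors, and how often sums of other genes overlap was not counted. The sums depend on the scale: rescaled by TMM factors, wild-type complex IV came to 12834 in cortex and 11804 in cerebellum and complex V to 5628 and 6330. They also depend on the length given to each gene, since with the median length of protein-coding transcripts complex IV summed to 7806 TPM in cortex against 7633 TPM in cerebellum.

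**Figure D3:**
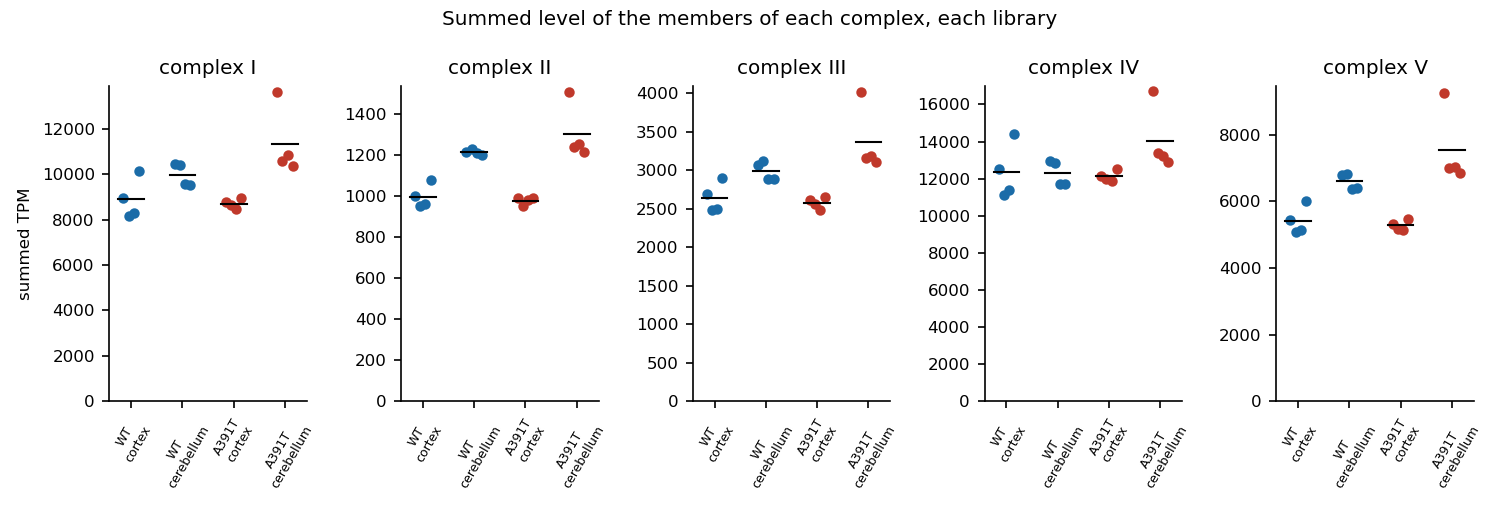
Summed TPM of the members of complexes I to V in each of the 16 libraries (points) with group means (lines), in wild-type (blue) and A391T (red) mice. In A391T cerebellum library CBLM445 is the highest point of every complex, at 16715 TPM for complex IV against 12892 to 13371 TPM in the other 3.

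The comparison of cerebellum with cortex in wild-type mice asked which members differ between these regions. 20 of 83 members were higher in cerebellum and 9 higher in cortex, by edgeR's quasi-likelihood test at an adjusted p under 0.05 over all genes tested, while 54 did not pass. Of all 16040 genes tested, 34.7% were higher in cerebellum and 33.1% higher in cortex. With all libraries a smaller share of members than of genes was therefore called in either direction. The median member differed by 0.07 (log2, cerebellum minus cortex) and the median gene by 0.02. The members' median was 0.13 without wild-type cortex CTX480 and -0.04 with only the 2 wild-type mice whose names match in both deposited sources. The filter on low counts asks for about 10 counts in 4 libraries, and 4 of the members tested, Cox6a2, Cox8b, Atp5g2 and Atp5l, reached it in 1 region only. The filter favours a call of such a gene, so that a call supports nothing. Among the other 79 members 19 were higher in cerebellum and 8 in cortex, against 35.2% and 32.4% of the genes that reach the filter in both regions. Of the members at least 2-fold apart (10.5% of all genes were so in favour of cerebellum and 14.2% of cortex), Cox7a1 and Cox6b2 reached the filter in both regions, while Cox8b, also higher in cerebellum, and Cox6a2, higher in cortex, did not. All 4 are genes of complex IV that have a more abundant partner. Without wild-type cortex CTX480, 34 of 83 members were higher in cerebellum and 7 in cortex, and all 20 of the first calls were kept. Among members then reaching the filter in both regions the shares were 41.8% and 7.59%, against 35.4% and 34% of genes. The share called higher in cerebellum was then larger among members than among genes. With library totals in place of TMM factors the split was 36 to 5, as the median gene then moved to 0.14.

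**Figure D4:**
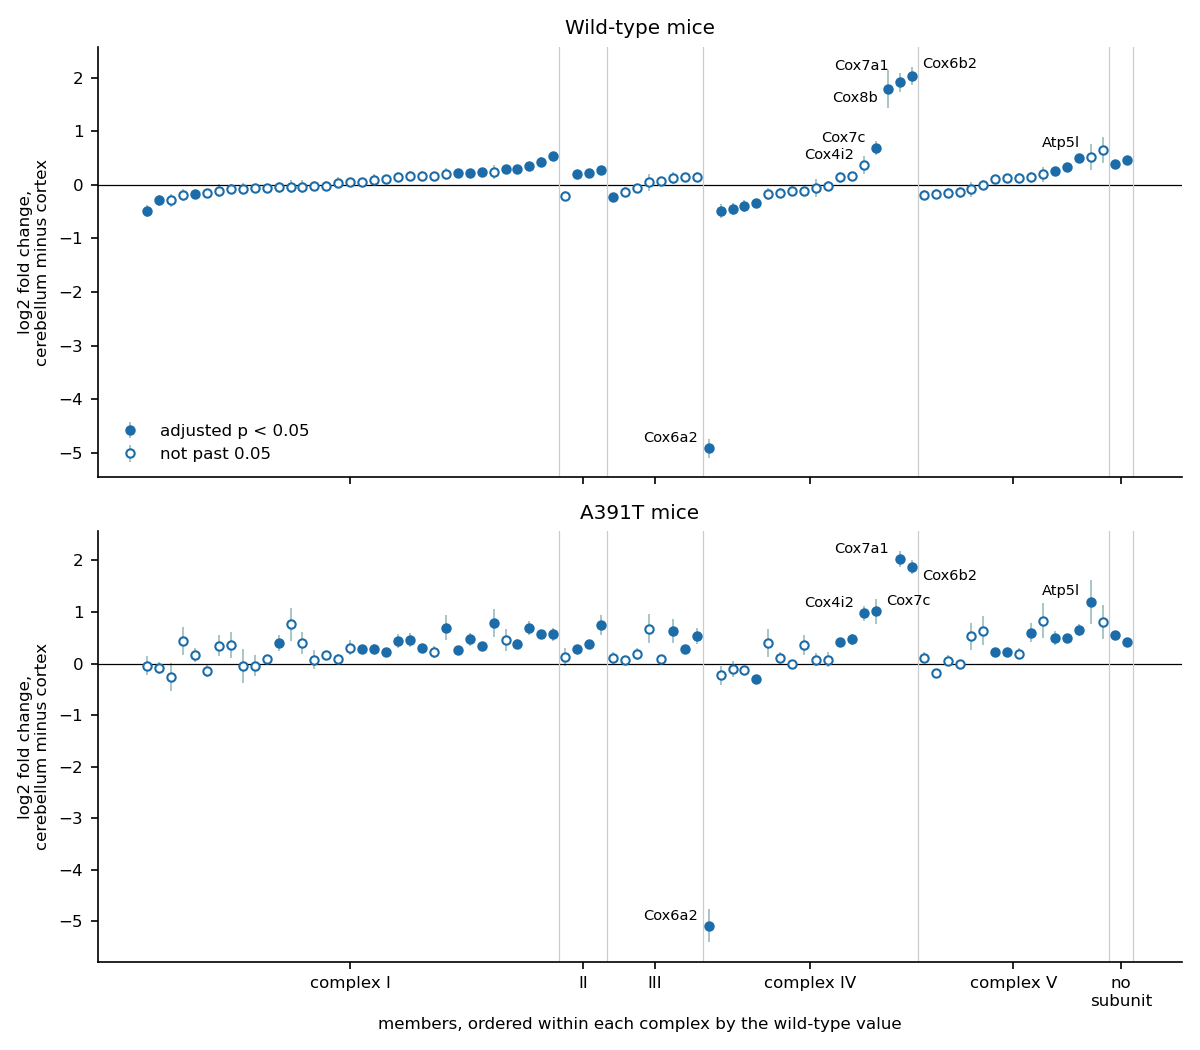
Log2 fold change of cerebellum against cortex with its standard error for each member tested, in wild-type mice (top, 83 members) and A391T mice (bottom, 82 members), grouped by complex. Filled points passed an adjusted p under 0.05. Cox6a2 lies near -5 and Cox7a1 and Cox6b2 near 2 in both genotypes, and most other members lie between -0.5 and 1.

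Cox6a2, the form of subunit 6a known from heart and skeletal muscle, had the largest difference of all members. Its TPM was 31.4, 30.3, 27.7 and 33.3 in the wild-type cortex libraries, and 1.17, 1.13, 1.15 and 0.966 in their cerebellum libraries. These came from 110 to 159 counts per cortex library and 4 or 5 counts per cerebellum library. The groups lie far apart with little spread inside either, and the fitted log2 fold change was -4.91 (standard error, SE, 0.18). Cox6a2 passed the filter on low counts only through the cortex libraries, so this value is given as a description with no test. The common form, Cox6a1, fell much less, from 1124 ± 177 TPM to 917 ± 67.6 TPM (log2 fold change -0.45, adjusted p = 0.0046). Cox6a2 (ENSMUSG00000030785) lies on chromosome 7 of NCBIM37, minus strand, between 135348950 and 135349880. Of its exon bases, 10.0% are shared with Itgad on the other strand, and the files were counted without regard to strand.

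Of the 7 markers of striated muscle, 5 were tested in wild-type mice. Myh1, Myh2 and Myh4 passed the filter only through cortex, with at most 1 count in any wild-type cerebellum library, and their calls support nothing. Of the 2 that reached the filter in both regions Acta1 was higher in cortex, as 33.1% of all genes tested were. Mylpf did not pass (log2 fold change 0.08, adjusted p = 0.80 in edgeR), and Tnnt3, too low to be tested, averaged 0.131 TPM in cortex against 0.880 in cerebellum. The summed level of all 7 was between 37.0 and 45.8 TPM in wild-type cortex and between 9.50 and 14.4 TPM in cerebellum, most of it from Acta1, skeletal muscle actin, at 33.7 ± 4.31 TPM and 6.46 ± 0.960 TPM. The fast myosin gene Myh1 averaged 0.578 TPM in cortex and was at 0 in all 4 wild-type cerebellum libraries, and Ckm, the muscle creatine kinase that defines the tissue, averaged 0.417 TPM and 0.162 TPM. Of the 4 markers of parvalbumin interneurons 2 were higher in cerebellum and 1 lower, with Pvalb itself, which Purkinje cells also express, higher in cerebellum by 3.39 (log2). The part of any of these cells in the level of Cox6a2 was not tested.

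Cox7a1, the muscle form of subunit 7a, went the other way. In wild-type cortex its TPM was 18.2, 12.1, 10.1 and 16.7, and in cerebellum 63.8, 57.1, 54.6 and 63.3. Every cerebellum library was at least 54.6 TPM and no cortex library was above 18.2 TPM, for a log2 fold change of 1.91 (SE 0.18, edgeR adjusted p = 3e-06). Cox6b2, the testis form of subunit 6b, had a TPM of 8.27, 8.66, 8.44 and 11.3 in cortex and 47.3, 42.7, 31.5 and 44.2 in cerebellum. Its groups did not overlap either, and its log2 fold change was 2.03 (SE 0.18, adjusted p = 1.3e-06). Cox8b, a heart and muscle form of subunit 8, was scarce in both regions, with 3 to 5 counts per wild-type cortex library and 11 to 23 per cerebellum library. Its TPM was 1.22, 1.39, 2.29 and 1.85 in cortex and 9.78, 5.75, 5.46 and 4.83 in cerebellum, without overlap. No test of it is given, since the filter favours a difference in a gene that passes only where it is high. On NCBIM37, Cox7a1 spans chromosome 7 from 30969190 to 30971047 on the plus strand, and Cox6b2 from 4703396 to 4704696 and Cox8b from 148084842 to 148086345 on the minus strand. The common partners Cox7a2 (log2 fold change -0.11, adjusted p = 0.28) and Cox6b1 (-0.18, adjusted p = 0.19) did not pass the test in edgeR, while Cox8a was lower in cerebellum (-0.35, adjusted p = 0.0026). Without wild-type cortex CTX480 the values were -0.03 for Cox7a2, -0.05 for Cox6b1 and -0.30 for Cox8a.

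**Figure D5:**
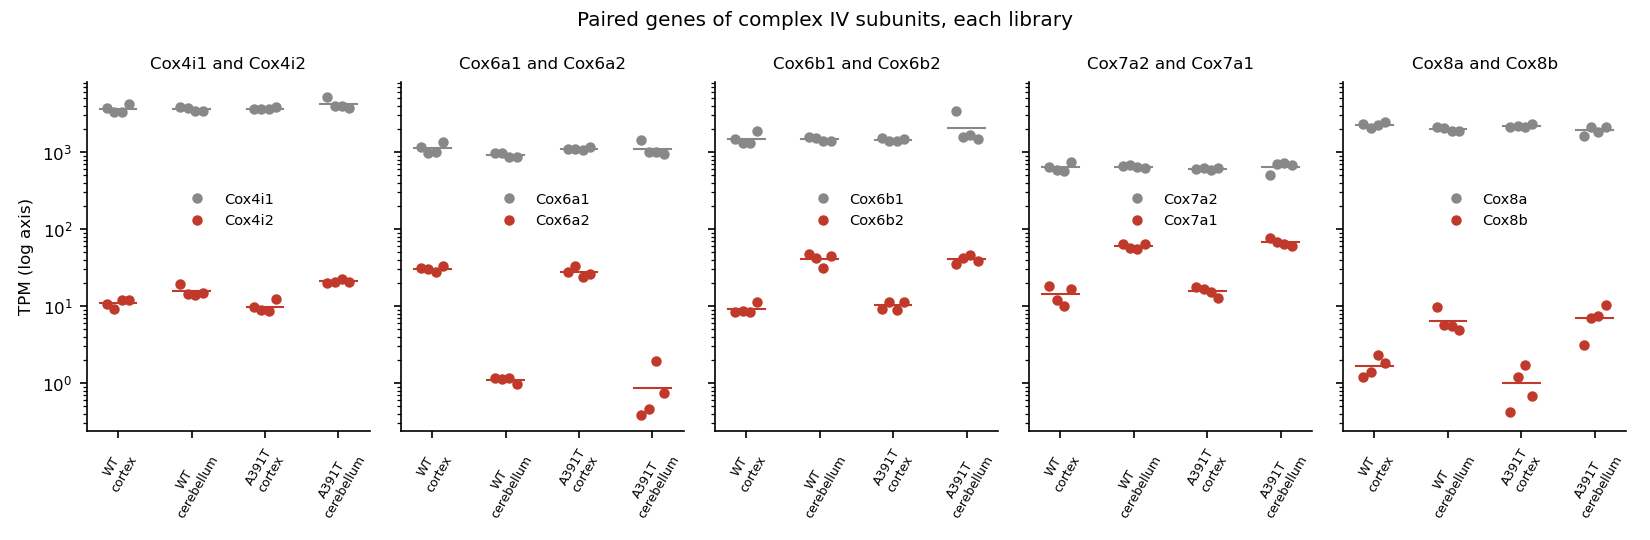
TPM (log axis) of 5 pairs of complex IV genes in each library of the 4 groups, with lines at the group means; the common gene is grey and its partner red. Cox6a2 lies near 30 TPM in cortex and near 1 TPM in cerebellum in both genotypes, while Cox7a1, Cox6b2 and Cox8b are higher in every cerebellum library than in any cortex library.

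The brown fat markers Ucp1 and Cidea summed to between 5.51 and 8.05 TPM in wild-type cortex and between 32.9 and 43.3 TPM in cerebellum. Most of that was Cidea, while Ucp1, which defines the tissue and reached the filter only in cerebellum, was at 0.111 TPM in cortex against 1.56 TPM in cerebellum. Choroid plexus markers summed to 7042, 8036, 39.2 and 5288 TPM in the wild-type cerebellum libraries. In the A391T cerebellum libraries they summed to 2355, 5784, 3267 and 40.1 TPM, and in the cortex libraries to between 6.38 and 45.1 TPM. The part of brown fat or choroid plexus cells in the levels of Cox7a1, Cox6b2 and Cox8b was not tested.

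The share of each partner within its family was compared between regions as a second measure that does not depend on the scale of a library. In wild-type mice Cox6a2 made up 2.68 ± 0.244% of its family in cortex against 0.120 ± 0.00985% in cerebellum (SD, n = 4), while Cox7a1 made up 1.72 ± 0.345% and 7.02 ± 0.634%. Cox6b2 rose from 0.610 ± 0.0460% to 2.72 ± 0.385% and Cox8b from 0.0739 ± 0.0207% to 0.321 ± 0.0943%. Cox4i2, the form of subunit 4 known from lung and from low oxygen, rose from 0.304 ± 0.0403% to 0.430 ± 0.0545%. None of these 5 shares overlapped between regions in either genotype. Cox6a2 and Cox8b are given as a description, and the shares of Cox7a1, Cox6b2 and Cox4i2 each gave the smallest two-sided p of an exact permutation test of 4 libraries against 4, 0.029, or 0.041 after adjustment over the 10 tests that leave out Cox6a2 and Cox8b. The size of a share depends on gene length: without division by length the Cox7a1 shares differed by 2.46 rather than 5.31 percentage points in wild-type mice and by 2.64 rather than 5.77 in A391T mice. Ndufa4l2, a partner of Ndufa4 induced by low oxygen, reached that smallest p in A391T mice only, with 0.888 ± 0.0763% in cortex and 0.703 ± 0.0223% in cerebellum. In wild-type mice its share was 0.907 ± 0.103% and 0.793 ± 0.127% (exact permutation p = 0.23), and the difference between genotypes was not tested. Among the 3 genes for the c subunit, Atp5g1 had a share of 1.84 ± 0.279% and 2.33 ± 0.352% in wild-type mice (exact permutation p = 0.11). Most of that family's level was Atp5g3, at 438 TPM in wild-type cortex and 536 TPM in cerebellum, and Atp5g2 cannot be weighed in it because of its copies.

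The promoters of common and partner genes are shown because the partners had the large regional differences. RefSeq windows of the GRCm38.p6 assembly, from 250 bases before to 50 bases after the start of a gene, were matched for 68 of the 83 members, and no window was held for Cox6a2, Cox4i1 or Cox4i2. Letters of 3 motifs known from genes of oxidative metabolism were searched on both strands: the NRF1 motif, which is GCGCA, any base and then GCGC, the core CCGGAAG bound by ETS factors such as GABP, and AAGATGG, part of the YY1 motif. Matches are in capitals, and no 2 motifs overlapped in a member's window.

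Cox6b1, chr7:30626065-30626364, minus strand: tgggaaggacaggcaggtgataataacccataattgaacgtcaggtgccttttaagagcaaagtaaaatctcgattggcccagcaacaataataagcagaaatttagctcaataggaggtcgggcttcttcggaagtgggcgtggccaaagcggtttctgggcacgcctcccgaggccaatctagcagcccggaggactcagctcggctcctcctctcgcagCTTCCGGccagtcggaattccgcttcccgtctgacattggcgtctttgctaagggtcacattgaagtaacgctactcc
Cox6b2, chr7:4753045-4753344, minus strand: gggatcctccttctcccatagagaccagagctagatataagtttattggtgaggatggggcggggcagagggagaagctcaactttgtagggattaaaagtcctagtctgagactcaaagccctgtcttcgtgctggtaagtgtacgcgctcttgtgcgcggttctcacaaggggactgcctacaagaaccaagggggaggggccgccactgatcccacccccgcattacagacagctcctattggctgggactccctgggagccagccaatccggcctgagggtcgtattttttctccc
Cox8a, chr19:7217567-7217866, minus strand: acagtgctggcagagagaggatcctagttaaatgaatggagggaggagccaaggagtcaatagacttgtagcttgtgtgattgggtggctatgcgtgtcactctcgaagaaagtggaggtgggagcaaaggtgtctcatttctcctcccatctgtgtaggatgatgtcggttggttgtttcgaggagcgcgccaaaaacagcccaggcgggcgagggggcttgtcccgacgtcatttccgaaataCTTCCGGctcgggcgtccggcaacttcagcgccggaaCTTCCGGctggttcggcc
Cox8b, chr7:140900397-140900696, minus strand: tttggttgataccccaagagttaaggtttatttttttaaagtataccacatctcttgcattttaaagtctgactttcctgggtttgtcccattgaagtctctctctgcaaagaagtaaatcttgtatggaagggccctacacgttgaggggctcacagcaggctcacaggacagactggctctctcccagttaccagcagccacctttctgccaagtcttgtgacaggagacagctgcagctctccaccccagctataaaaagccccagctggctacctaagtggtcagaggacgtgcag
Cox7a1, chr7:30183921-30184220, plus strand: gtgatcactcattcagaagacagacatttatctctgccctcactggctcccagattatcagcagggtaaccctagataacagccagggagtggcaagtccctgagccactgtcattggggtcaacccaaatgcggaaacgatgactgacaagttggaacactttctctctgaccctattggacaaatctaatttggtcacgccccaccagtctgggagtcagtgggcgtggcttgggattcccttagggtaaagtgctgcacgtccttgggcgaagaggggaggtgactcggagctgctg

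The common genes Cox6b1 and Cox8a held 1 and 2 matches of the ETS core, and their partners Cox6b2 and Cox8b held none of the 3 motifs, nor did Cox7a1 or its common partner Cox7a2. Over all members with a window, 17 of 68 (25%) held the NRF1 motif, against 7.17% of the 17492 protein-coding genes with a window. The ETS core was found in 23.5% of members and 12.9% of genes, and the YY1 letters in 17.6% and 7.18%. Any of the 3 was found in 57.4% of members and 24.1% of genes. CpG dinucleotides numbered 17 in the window of Cox6b1 and 19 in that of Cox8a, and 10, 2 and 7 in those of Cox6b2, Cox8b and Cox7a1. The median was 19 over members and 15 over all genes. A match of letters is a description and not a binding site.

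Complex I takes electrons from NADH through core subunits that carry the flavin and the iron-sulphur clusters. Of its 35 members, 8 were higher in cerebellum and 3 higher in cortex in wild-type mice, with log2 fold changes between -0.48 and 0.54. Without wild-type cortex CTX480 the counts were 14 and 2. The core subunits Ndufs1 (log2 fold change 0.29, adjusted p = 0.0021) and Ndufs3 (0.29, adjusted p = 0.0088), the latter with 43.0% of its windows copied, were higher in cerebellum. Ndufs7, which holds the last iron-sulphur cluster, was at 236, 224, 242 and 258 TPM in cortex and 357, 349, 336 and 312 TPM in cerebellum (log2 fold change 0.34, SE 0.07, adjusted p = 0.0012). Among the 28 accessory subunits 4 were higher in cerebellum and 3 in cortex. The highest was Ndufb2 (log2 fold change 0.54, adjusted p = 4.5e-05) and the lowest Ndufb9 (-0.48, adjusted p = 0.0029), whose level was 1090 ± 178 TPM in cortex against 868 ± 58.6 TPM in cerebellum. Ndufb9 was highest in wild-type cortex CTX480, at 1338 TPM, and without that library its log2 fold change was -0.36 (adjusted p = 0.0019).

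Complex II has 4 subunits, all coded in the nucleus. Sdha, the flavoprotein that oxidises succinate, was at 402 ± 8.65 TPM in cortex against 515 ± 14.3 TPM in cerebellum (log2 fold change 0.21, adjusted p = 0.0051 from edgeR). The membrane anchors Sdhc (0.28, adjusted p = 0.0042) and Sdhd (0.22, adjusted p = 0.015) were also higher in cerebellum. Sdhb, the iron-sulphur subunit of the complex, had a log2 fold change of -0.21 (adjusted p = 0.079). Of the 8 members of complex III none was higher in cerebellum and Uqcr11, a small subunit, was higher in cortex (log2 fold change -0.23, adjusted p = 0.028). Both statements rest on wild-type cortex CTX480, for without it Uqcr11 did not pass (-0.19, adjusted p = 0.052), while the Rieske protein gene Uqcrfs1 (0.22, adjusted p = 0.021) and Uqcrh (0.25, adjusted p = 0.0054) were higher in cerebellum. Its core protein Uqcrc1 missed the threshold (log2 fold change 0.14, adjusted p = 0.0502).

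In complex IV 4 of 18 members were higher in cerebellum and 5 in cortex, or 6 and 5 without wild-type cortex CTX480, each of which includes Cox8b in the first number and Cox6a2 in the second. Besides the genes above, Cox7c was higher in cerebellum (log2 fold change 0.69, adjusted p = 0.00064), with 29.9% of its windows copied. Cox7a2l (-0.48, adjusted p = 0.0058) and Cox6c (-0.39, adjusted p = 0.0076) were higher in cortex. Ndufa4 (0.14, adjusted p = 0.24) and Ndufa4l2 (-0.07, adjusted p = 0.74) did not pass with all libraries. Without CTX480 Ndufa4 passed edgeR's test (0.24, adjusted p = 0.013). Cox4i1 had a log2 fold change of -0.15 (adjusted p = 0.18), and Cox4i2 of 0.37 (adjusted p = 0.061) with a TPM of 10.8, 9.24, 12.0 and 11.9 in cortex and 19.5, 14.4, 13.9 and 14.9 in cerebellum. In complex V 3 of 16 members were higher in cerebellum and none in cortex. Without wild-type cortex CTX480 the count was 7, with Atp5c1, Atp5g3, Atp5h and Atp5o added. Atp5b, the catalytic beta subunit, was at 1254, 1219, 1211 and 1284 TPM in cortex and 1766, 1792, 1732 and 1695 TPM in cerebellum (log2 fold change 0.34, SE 0.06, adjusted p = 4e-04). Atp5a1, the alpha subunit, rose with it (0.26, adjusted p = 0.0019), as did Atp5g1 (0.50, adjusted p = 0.00021), whereas Atp5g3 had a log2 fold change of 0.14 (adjusted p = 0.23, or 0.22 with adjusted p = 0.030 without CTX480). Atp5l and Atp5g2, which reached the filter only in cerebellum, had log2 fold changes of 0.52 and 0.66, given as a description with no test.

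In A391T mice 37 of 82 members tested were higher in cerebellum and 2 higher in cortex, against 31.6% and 31.3% of 16005 genes. The median member differed by 0.32 and the median gene by 0.03 (log2). In these mice Atp5l, with 2 to 13 counts per cortex library, and Cox6a2, with 2 to 8 per cerebellum library, reached the filter in 1 region only, and Atp5g2 in neither region by itself. Among the other 79 members 36 were higher in cerebellum and 1, Cox8a, in cortex, against 32.3% and 29.8% of the genes that reach the filter in both regions. At least 2-fold higher in cerebellum were Cox7a1, Cox6b2 and Cox7c, and with mouse as a block only Cox7a1 and Cox6b2. Counted with Atp5l and, in cortex, Cox6a2, whose calls support nothing, these are 4 and 1 members, against 9.8% and 14.9% of genes. Without A391T cerebellum CBLM445, 52 of 83 members were higher in cerebellum and 8 in cortex, against 36.6% and 36.1% of genes, and the median member differed by 0.23. Among members reaching the filter in both regions the shares without that library were 64.6% and 8.86%, against 38% and 34.7% of such genes. By complex, the higher and lower counts without it were 25 and 2 for complex I (16 and 0 with it), 3 and 1 for complex II (3 and 0), 5 and 0 for complex III (3 and 0), 8 and 5 for complex IV (6 and 2) and 9 and 0 for complex V (7 and 0). Among these are Cox6a2 in both lower counts of complex IV, Cox8b in the higher count of complex IV without the library, and Atp5l in the higher count of complex V with it. That library was the highest of its group in many members, such as Cox6b1 at 3425 TPM against 1482 to 1647 TPM and Sdhc at 255 TPM against 144 to 153 TPM. It was the lowest in others, such as Ndufb2 at 24.6 TPM against 39.6 to 40.9 TPM. Atp5l, which reached the filter only in cerebellum, lost its call without that library (log2 fold change 0.94), and Cox7c then fell to 0.69, under 2-fold.

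The large differences of complex IV were present in both genotypes. Cox6a2 in A391T mice had a TPM of 28.0, 33.5, 23.6 and 26.0 in cortex and 0.381, 0.457, 1.93 and 0.742 in cerebellum, a fitted log2 fold change of -5.09 (SE 0.32), again as a description. Of these cerebellum libraries 3 held 3 or fewer counts. Cox7a1 had a log2 fold change of 2.03 (adjusted p = 1.7e-06) and Cox6b2 of 1.87 (adjusted p = 1.1e-06). Cox8b, with 1 to 4 counts per A391T cortex library, was not tested in that comparison. Its TPM was 0.425, 1.22, 1.70 and 0.689 in cortex and 3.12, 7.07, 7.46 and 10.3 in cerebellum, again with no overlap. Cox4i2 passed the test here, with a log2 fold change of 0.97 (adjusted p = 0.00017) and a TPM of 9.77, 8.96, 8.60 and 12.2 in cortex and 19.9, 20.8, 22.4 and 20.7 in cerebellum.

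The wild-type and A391T comparisons share no library. Of the members higher in cerebellum, 18 were called in both, which is 90% of the wild-type calls and 48.65% of the A391T calls. Of the 15827 genes tested in both, 28.5% were higher in cerebellum in both, which is 81.9% of the wild-type and 89.8% of the A391T calls, and 27.7% were higher in cortex in both. The members called in both include Ndufs1, Ndufs7, Sdha, Sdhc, Sdhd, Atp5a1 and Atp5b. Cox8a was higher in cortex in both. Without wild-type cortex CTX480 and A391T cerebellum CBLM445, 33 members that reach the filter in both regions were higher in cerebellum in both genotypes, among them Ndufa4, Cox5a, Uqcrfs1 and Atp5g3. A further 6 were then higher in cortex in both: Cox6a1, Cox6c, Cox7a2l, Cox8a, Ndufa8 and Ndufb9. Cox8b and Cox6a2, left out of these counts, would add 1 to each. The 33 and 6 are 41.8% and 7.59% of the members that reach the filter in both regions, against 33.3% and 31.3% of 14264 such genes. Over all genes tested in both genotypes, whatever their filter, 32.5% and 32% were then called in both. These counts were made after the libraries had been seen to stand apart.

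Between genotypes no member passed. In cortex 0 of 81 members tested differed between A391T and wild-type mice by edgeR at an adjusted p under 0.05, and 0 by DESeq2. An unadjusted p under 0.05 was found for 0 members, and for 0 to 5 as each library was left out in turn, with 5 without CTX448, 3 without CTX480 and 2 without CTX462. Of all genes 0.0126% (2 of 15815) were called, and 4.73% had an unadjusted p under 0.05. The lowest p belonged to Ndufs7 (log2 fold change A391T minus wild type -0.13) and Atp5k (-0.18), both with an adjusted p = 0.9997 in edgeR. The median member was at -0.06, with 11 of 81 above 0, against 50.1% of all genes. It moved to 0.02 with 49 above 0 when wild-type cortex CTX480 was left out. That direction therefore rests on 1 library.

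In cerebellum 0 of 82 members were called by edgeR and 0 by DESeq2. Of 15668 genes 0.0% were called by edgeR, while DESeq2 called 15 higher and 22 lower. Here 9 members had an unadjusted p under 0.05 by edgeR, against 8.55% of genes. That number was 21 without A391T cerebellum CBLM445 and ran from 1 to 30 as each library was left out in turn. It was 1 without CBLM479, 2 without CBLM480 and 30 without CBLM462. With the names of the RPKM table it was 3, and with only the mice whose names match it was 14. The median member was 0.19 higher in A391T mice, with 75 of 82 above 0, against 51.4% of all genes. It was 0.09 without A391T cerebellum CBLM445, with 77 above 0. Without wild-type cerebellum CBLM479 it was 0.16, with 65 above 0, and without CBLM480 0.18, with 69 above 0. It was 0.17 with the names of the RPKM table and 0.38 with only the matching mice. The lowest p belonged to Cox4i2 (log2 fold change 0.47, adjusted p = 0.53) and Ndufs6, a zinc-binding subunit of complex I (0.20, adjusted p = 0.53). Cox4i2, picked here for its low p and not called, was at 13.9 to 19.5 TPM in wild-type and 19.9 to 22.4 TPM in A391T cerebellum.

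The test of whether the regional difference itself differed between genotypes called 0 of 83 members by edgeR and 0 by DESeq2, with 11 at an unadjusted p under 0.05 in edgeR, between 2 and 27 as each library was left out (27 without CBLM462), 9 with the names of the RPKM table and 23 with only the matching mice. Over 16589 genes 0.0% were called by edgeR and 4.85% had an unadjusted p under 0.05. The median member's interaction was 0.22 (log2), and 0.07 without the 2 libraries that stood apart, with 2 members then under 0.05. Cox7a1 had an interaction of 0.13 and Cox6b2 of -0.15, each smaller than its standard error (0.25 and 0.22). That of Cox4i2 was larger, at 0.62 (SE 0.21, adjusted p = 0.77 in edgeR). Cox6a2 (-0.17, SE 0.44) and Cox8b (0.85, SE 0.65) rest on few counts in 1 region and are given as a description.

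Other genes of the pathway were described by lists of known members. Regulators of mitochondrial biogenesis were mostly higher in cerebellum in wild-type mice, with 11 of 16 tested higher and 1 lower and a median log2 fold change of 0.37. The nuclear receptors Esrrb (2.92, adjusted p = 9.5e-10) and Esrrg (1.73, adjusted p = 4.8e-07) had the largest values among them in edgeR's test, followed by the coactivator Ppargc1b (1.62). The factors whose motifs were searched differed less, with Nrf1 at 0.56, Gabpa at 0.44 and Yy1 at 0.15 (adjusted p = 0.16). Ppargc1a, the best known coactivator of these genes, differed by 0.25 (adjusted p = 0.013). Of the exons of Atp5j, 12.7% of the bases are shared with Gabpa.

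Of the enzymes of the tricarboxylic acid cycle 6 of 13 were higher in cerebellum and 1, Idh3a, was lower, with a median of 0.17. Glycolysis and lactate genes went the other way by count, with 3 of 17 higher and 11 lower and a median of -0.26. Ldha fell by 1.15 on the log2 scale, while the astrocytic aldolase Aldoc (1.16) and Hk2 (1.85) were higher in cerebellum. Their summed level was nevertheless higher in cerebellum, at 10420 to 11030 TPM against 8685 to 9310 TPM in cortex.

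Assembly factors bring the subunits together and are not part of the finished complexes. Of 10 factors for complex I in the files, 1 was higher in cerebellum (Acad9, 0.32) and 2 were lower, and of 18 tested for complexes II to V, 1 was higher and 5 were lower. The largest decrease was that of Ttc19, a complex III factor, at 76.8 ± 1.42 TPM in cortex against 47.2 ± 2.96 TPM in cerebellum (log2 fold change -0.86, adjusted p = 2.3e-07 from edgeR). Among carriers and coupling proteins 5 of 12 were higher and 2 lower. Cyc1, cytochrome c1 of complex III, rose from 549 ± 20.2 TPM to 804 ± 31.1 TPM, Ucp2 by 1.29 (log2) and the ADP/ATP carrier Slc25a5 by 0.37. Atpif1, which inhibits the ATP synthase, fell by 0.64 on the log2 scale and Slc25a14 by 1.13. In A391T mice the counts of higher and lower genes were 3 and 0 for complex I assembly, 2 and 4 for the other assembly factors, 5 and 2 for carriers, 11 and 1 for biogenesis, 8 and 0 for the cycle and 4 and 10 for glycolysis. Without wild-type cortex CTX480 the wild-type counts became 2 and 2 for complex I assembly, 2 and 5 for the other assembly factors, 8 and 1 for the cycle and 4 and 11 for glycolysis, while those for biogenesis and carriers were the same. Without A391T cerebellum CBLM445 the A391T counts became 3 and 1 for complex I assembly, 3 and 4 for the other assembly factors, 6 and 2 for carriers and 9 and 0 for the cycle, while those for biogenesis and glycolysis were the same. These lists, like the members, can be read against the shares of 34.7% and 33.1% of all genes called in wild-type mice.

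Pericytes are a brain cell type known to express Cox4i2 and Ndufa4l2. Of 7 pericyte and smooth muscle markers 0 were higher and 2 lower in wild-type cerebellum (1 and 1 without wild-type cortex CTX480), and their sum was between 300 and 389 TPM in cortex and between 344 and 372 TPM in cerebellum. Astrocyte markers were higher in cerebellum in 3 of 4 cases, microglial markers lower in 4 of 4, oligodendrocyte and blood markers in neither direction, 1 of 4 endothelial markers was lower, and of 4 general neuronal markers 1 was higher and 2 were lower. Their part in the members' differences was not tested.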

How the data were processed

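Libraries were made from polyA RNA with a strand-specific kit and read as 50-base reads. Per the study's methods and the labels, the authors used STAR with the mm9 genome for alignment and HTSeq, without strand, for counts per gene. Tests on the deposited counts used the R 4.3.3 package edgeR 4.0.16 (filterByExpr, TMM factors, quasi-likelihood test, Benjamini-Hochberg adjustment over all genes tested, threshold 0.05), once per region comparison, per genotype comparison and for their interaction, on the libraries of that comparison. DESeq2 1.42.0 was an alternative. Rows without a gene were left out (no feature 10.2% to 13.2%, ambiguous 2.20% to 2.75%, not unique 8.41% to 12.1%). The deposited RPKM table gave gene names and lengths and served to match library names, and no other value. TPM was computed from counts and those lengths, with the median length of protein-coding transcripts as an alternative. The fit was tested on simulated data. Exact tests used scipy 1.17.1. Levels rest on between 20813432 and 30497206 counts per library, and replicates are separate mice.

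Both regions came from the same animals by their labels. Deviations from the group means of same-mouse libraries correlated between -0.159 and 0.222, and the fit with mouse as a block is an alternative. The members and lists were chosen with earlier results of these data known. Named by rule were members past 2-fold in a region comparison, the 5 largest calls in each direction in wild type, genes of the isoform families, the 2 lowest p by genotype, the highest and lowest level of each complex, and the Sdh genes. Others were named for their role after their values were seen. Left-out libraries were chosen after the data had been seen. Members that are not named enter the counts and sums only.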

Additional observations from a re-analysis of the deposited data

Results flagged for a closer look

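Of 152 groups of 4 libraries tested for a library far from the other 3 by Dixon's ratio, 24 gave one, where chance flags about 1 in 20 groups (7.6 here). Most were CBLM445 of A391T cerebellum. The members took 1.79% of its counts, and its summed levels were 13613 TPM for complex I, 1508 TPM for complex II, 4015 TPM for complex III, 16715 TPM for complex IV and 9255 TPM for complex V. It was the highest of its group in Atp5g3 (974 TPM), Cox4i1 (5146 TPM), Cox6a1 (1446 TPM), Cox6b1 (3425 TPM), Cox7a2l (235 TPM) and Ndufb9 (1640 TPM), and in Ndufs7 (477 TPM), Sdhb (379 TPM), Sdhc (255 TPM), Uqcrb (222 TPM) and Uqcrc1 (802 TPM). It was the lowest in Ndufb2 (24.6 TPM). Pvalb, at 4418 TPM in this library against 1770 to 1871 TPM in the other A391T cerebellum libraries, moved with it, and its part in these values was not tested.

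Single members stood apart in other libraries. Cox6b2 was at 11.3 TPM in wild-type cortex CTX480, against 8.27 to 8.66 TPM in the other 3, and Cox4i1 at 3820 TPM in A391T cortex CTX462, against 3626 to 3650 TPM. In wild-type cerebellum Atp5g2 was at 3.58 TPM in CBLM447 and Sdhd at 337 TPM in CBLM480, against 327 to 328 TPM. In A391T cerebellum Atp5g2 was at 1.72 TPM in CBLM461 and Sdha at 504 TPM in CBLM446, against 529 to 534 TPM.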

How the results depend on the processing

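Members higher in wild-type cerebellum numbered 36 with library totals, 8 with only the mice whose names match in both tables, 6 (with 7 lower) with those mice and mouse as a block, and 3 with a 2-fold minimum. Members lower numbered 5, 5 and 1 with totals, matching mice and a 2-fold minimum. In A391T mice 13 were higher with matching mice, 37 (with 3 lower) with those mice and mouse as a block, and 4 with a 2-fold minimum, and 1 was lower with totals, with matching mice and with a 2-fold minimum. Leaving out 1 library gave 19 to 34 higher and 6 to 12 lower in wild type, with 34 without CTX480, and 28 to 52 higher and 2 to 8 lower in A391T mice, with 52 and 8 without CBLM445. Counts with mouse as a replicate block (paired) were 19 higher and 9 lower in wild type and 33 and 2 in A391T mice, where 2 were then 2-fold higher. Genotype and interaction counts were 0 in every alternative. Shares kept their direction under every alternative run. Their differences moved by over 1.5 times without division by length for Cox7a1, Cox8b, Atp5g1 and Ndufa4l2, and in some further settings for Atp5g1 and Ndufa4l2. With 1 library left out the smallest exact p is 0.057. With the names of the RPKM table the Atp5g1 share difference in wild type was 0.637 percentage points and passed the test.

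Some log2 fold changes of genes named by rule that had not passed the test changed sign, and the cause was not tested. In wild type these were Atp5g3 (-0.0083), Ndufa4 (-0.013) and Uqcrb (-0.11, and -0.072 with mouse as a block) with matching mice, and Cox7a2 (0.0031), Ndufa4l2 (0.049) and Ndufs6 (0.063) with library totals. In A391T mice they were Atp5k with the names of the RPKM table (-0.024, and -0.026 with the block) and with matching mice (-0.053, and -0.058 with the block). With library totals they were Cox6a1 (0.022), Cox6c (0.0024), Cox7a2 (0.12) and Ndufb9 (0.085). With matching mice they were Cox6a1 (0.10), Cox7a2l (0.083, from -0.22) and Ndufb9 (0.19), and with the block 0.062, 0.029 and 0.12. Cox7a2 was at 0.0026 with all libraries in 1 model. Among the genes named by rule, leaving out 1 library gave ranges that cross 0 for Ndufa4l2 (-0.184 to 0.088) and Uqcrb (-0.068 to 0.221) in wild type, and for Atp5k (-0.015 to 0.137), Cox4i1 (-0.054 to 0.168), Cox6b1 (-0.029 to 0.546), Cox7a2 (-0.058 to 0.064), Ndufb9 (-0.315 to 0.058) and Sdhb (-0.124 to 0.225) in A391T mice. The values of opposite sign came without CTX480 for Ndufa4l2 and without CBLM445 for Cox4i1, Cox6b1 (0.40 with all libraries) and Sdhb. Over all members, 10 changed sign without CTX480 in wild type and 11 without CBLM445 in A391T mice. None of these had passed with all libraries, and Ndufa12 (0.17), Ndufs5 (0.25) and Sdhb (-0.12) passed without CBLM445.

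With protein-coding transcript lengths wild-type sums in TPM were 7590 in cortex and 8651 in cerebellum for complex I, 7806 and 7633 for complex IV, and 6523 and 7839 for complex V, with cerebellum at 1233 for complex II and 3147 for complex III. Rescaled by TMM factors, cerebellum sums were 1164 for complex II, 2867 for complex III and 6330 for complex V. Leaving out 1 library moved no wild-type sum by more than its spread. Cox8b and Cox6a2 rest on few counts in 1 region, and Atp5l and Uqcrb on the part of their transcripts without copies, while Atp5g2 has no window without one. TPM without mitochondrial genes was not run, since the values used hold none.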
